A study of Mus musculus with 13 samples.

Results

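The genes described here are 35 mouse genes of glycolysis and of the response to low oxygen, picked by symbol from the 21073 genes of the deposited expression table. They comprise 4 transporters of glucose and lactate, 14 glycolytic enzymes, 3 regulators and 14 further genes known as targets of hypoxia-inducible factor (HIF). All 35 were found. Messenger RNA was sequenced in 13 libraries from mice on a C57BL/6J background, all immunized with the myelin peptide MOG35-55 in complete Freund's adjuvant and used on day 14. Th17 cells, the interleukin 17-producing class of CD4+ T cells, were grown for 3 days from spleen and lymph node cells with the peptide under Th17 conditions and then sorted as CD4+ T cells, from mice that had received no pertussis toxin. The Th17 groups were WT (n = 2), STAT5 tetramer-deficient double knock-in (DKI) cells (n = 2), DKI cells of a separate set of labels without added CCL17 (n = 3) and DKI cells with added CCL17, a chemokine (n = 3). Bone marrow (BM) monocytes, spinal cord (SC) monocytes and spinal cord monocyte-derived antigen-presenting cells (APCs) were sorted from DKI mice in which pertussis toxin was also given to induce experimental autoimmune encephalomyelitis, with 1 library each. No WT monocytes were analysed here, so the myeloid libraries show tissue and cell type within 1 genotype. The labels give neither the ages of the mice nor how many went into a library. The DKI alleles are knock-in point changes in Stat5a and Stat5b that leave STAT5 able to form dimers but not tetramers, and the RNA level of these genes therefore does not check the genotype labels.

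Glycolysis splits glucose into pyruvate and makes ATP without oxygen. Activated T cells and inflammatory myeloid cells are known for running it at a high rate also where oxygen is present, with the pyruvate largely turned into lactate and exported. HIF-1 is a transcription factor whose alpha subunit, the product of Hif1a, is hydroxylated and degraded when oxygen is plentiful. When oxygen is low the subunit accumulates and raises transcription of transporters, of most glycolytic enzymes and of genes that limit mitochondrial use of pyruvate, promote vessel growth or shut HIF off again, so the enzymes and the other targets share a regulator but serve different ends.

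Values are log2(RPKM + 1), where RPKM is reads per kilobase of gene, scaled to equal sequencing depth. The read totals recovered from the values ran from 12600000 to 32100000 per library. T cell markers summed to between 2050 and 2900 RPKM in the Th17 libraries and to 0.53 in BM monocytes, and myeloid markers to between 15500 and 20700 RPKM in the 3 myeloid libraries. The CCL17 set of Th17 libraries also carried myeloid markers, at 652 to 1050 RPKM in sum, against 21.1 to 92.5 in the WT and DKI set. The labels do not say which libraries came from separate mice or cultures, so the spread between replicates may be partly technical. In bulk samples, fewer cells of a type and less RNA per cell cannot be told apart.

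HIF binds DNA at a short core, ACGTG or GCGTG, and the promoters of these genes were searched for it on both strands in the 250 bases before each start annotated by RefSeq on GRCm38.p6. Where any gene had several starts, the one with the most matches was counted. A promoter was on file for 32 of the 35 genes, all but Slc2a3, Ndrg1 and Bnip3l. At least 1 match was present in 30 of the 32 (93.8%), against 62.8% of 8674 genes that were tested in the Th17 cells and have a promoter on file, and 41.5% of all 27025 genes. At least 2 matches were present in 22 of the 32 (68.8%), against 32.6% and 18.7%. All 12 HIF targets with a promoter and 12 of the 14 enzymes had a match, and the exceptions were the enzyme genes Gpi1 and Tpi1. The palindrome CACGTG, which other factors also bind, holds the core on both strands and so counts as 2 matches. The 6 promoters with the most matches are shown, with ties broken by the number of ACGTG. These are the 4 with 4 or 5 matches and, of the 7 with 3 matches, those of Hif1a and Pfkfb3. Together they include all 4 roles. Capitals mark every match, also those on the opposite strand, which read CACGT or CACGC here. A match is a description of the letters and not evidence of binding. The genes were picked as genes of glycolysis and known HIF targets, so the comparison with all genes is not a test. The number of starts per gene was not matched either.
Ldha promoter, chr7:46845554-46845803, plus strand: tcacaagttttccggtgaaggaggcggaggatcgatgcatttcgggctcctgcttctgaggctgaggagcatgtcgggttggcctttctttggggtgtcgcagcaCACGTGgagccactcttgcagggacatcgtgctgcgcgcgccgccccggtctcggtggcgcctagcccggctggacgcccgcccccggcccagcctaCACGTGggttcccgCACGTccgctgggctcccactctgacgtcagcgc
Bnip3 promoter, chr7:138909507-138909756, minus strand: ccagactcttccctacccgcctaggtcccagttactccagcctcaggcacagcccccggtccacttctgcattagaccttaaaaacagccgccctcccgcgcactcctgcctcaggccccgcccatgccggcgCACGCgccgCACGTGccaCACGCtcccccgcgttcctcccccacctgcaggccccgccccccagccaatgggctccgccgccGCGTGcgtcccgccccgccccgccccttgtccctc
Ankrd37 promoter, chr8:45999851-46000100, minus strand: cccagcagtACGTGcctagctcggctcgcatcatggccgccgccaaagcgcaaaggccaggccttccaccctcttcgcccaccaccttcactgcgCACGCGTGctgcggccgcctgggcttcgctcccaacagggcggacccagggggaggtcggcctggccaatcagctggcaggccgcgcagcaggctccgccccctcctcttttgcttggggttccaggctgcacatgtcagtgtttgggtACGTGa
Slc16a1 promoter, chr3:104638414-104638663, plus strand: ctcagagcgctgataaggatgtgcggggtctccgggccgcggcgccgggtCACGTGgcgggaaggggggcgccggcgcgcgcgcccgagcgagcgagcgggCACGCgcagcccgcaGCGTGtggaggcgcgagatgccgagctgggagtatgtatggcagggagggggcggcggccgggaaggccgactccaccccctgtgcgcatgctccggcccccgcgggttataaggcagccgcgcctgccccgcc
Hif1a promoter, chr12:73907617-73907866, plus strand: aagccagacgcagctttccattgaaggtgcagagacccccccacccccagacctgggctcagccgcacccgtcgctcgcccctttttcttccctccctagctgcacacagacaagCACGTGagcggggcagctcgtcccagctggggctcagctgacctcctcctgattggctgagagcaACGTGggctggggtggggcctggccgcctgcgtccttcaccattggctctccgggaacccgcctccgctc
Pfkfb3 promoter, chr2:11502091-11502340, minus strand: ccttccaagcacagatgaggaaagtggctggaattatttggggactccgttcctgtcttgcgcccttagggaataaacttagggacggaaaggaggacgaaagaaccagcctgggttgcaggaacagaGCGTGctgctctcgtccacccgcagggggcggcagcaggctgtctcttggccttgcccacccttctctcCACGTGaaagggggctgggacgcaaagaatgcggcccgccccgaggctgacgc
Ldha, which encodes the enzyme that turns pyruvate into lactate, had 5 matches, 4 of them in 2 copies of CACGTG. Bnip3, a gene of mitochondrial removal, also had 5, of which 2 lie in 1 CACGTG. Ankrd37, an ankyrin repeat gene, and Slc16a1, which encodes the lactate transporter MCT1, had 4 each, and Hif1a and Pfkfb3, whose product makes the activator of phosphofructokinase, had 3 each.

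The genes spanned a wide range of levels, and the order differed between T cells and myeloid cells. In the 10 Th17 libraries the highest median was that of the aldolase gene Aldoa (8.81 lowest, 9.10 median, 9.43 highest), followed by Ldha and Pkm, the pyruvate kinase gene, both with a median of 8.83. Hif1a itself was abundant (7.76, 8.22 and 8.34). The lowest were Ak4, an adenylate kinase gene of mitochondria (0.26, 0.59 and 1.01), and Pfkfb4 (1.58, 1.96 and 2.65). Among HIF targets, Ddit4, an inhibitor of the growth regulator mTORC1 (6.42, 7.79 and 7.96), and Ndrg1 (5.79, 7.19 and 7.49) had the highest medians. None of the others had a median over 5.07, that of Egln1. Single libraries differed in this: Pdk1 lay above Ndrg1 in WT replicate 2 (6.22 and 5.91) and DKI replicate 2 (6.14 and 5.79). Aldoa was also the highest of the 35 in both spinal cord libraries, and Pkm was the highest in BM monocytes.

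**Figure D1:**
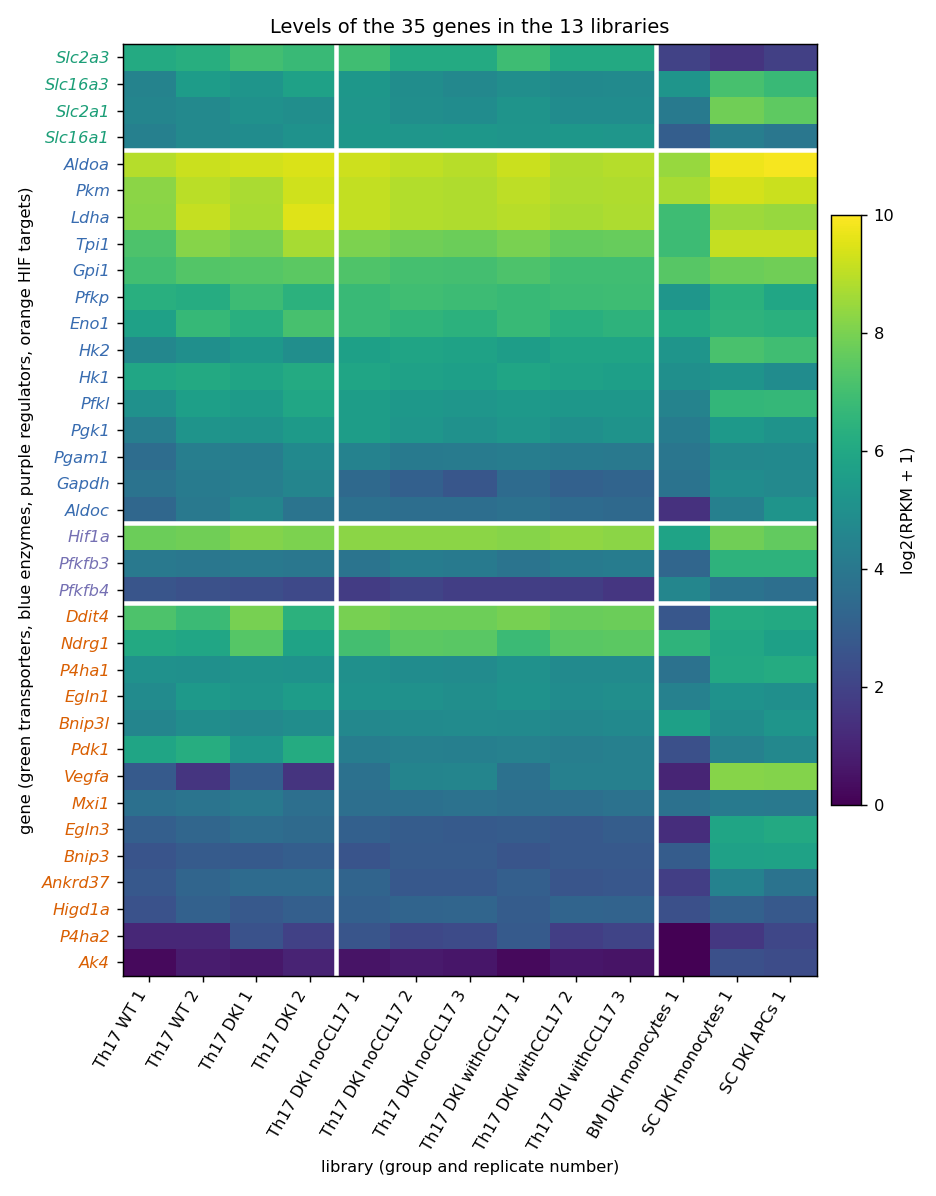
Level of each of the 35 genes (rows, grouped by role and ordered by mean within a role) in each of the 13 libraries (columns), as log2(RPKM + 1) on a colour scale from 0 to 10; white lines separate roles and the WT and DKI set, the CCL17 set and the myeloid libraries. Vegfa reads 1.03 in bone marrow monocytes and 8.17 in spinal cord monocytes, while Slc2a3 reads 6.06 to 6.98 in Th17 cells and 1.50 to 1.98 in the myeloid libraries.

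Several of these levels are uncertain because reads from near-identical copies can be lost or split. Of all 50-base stretches of the Gapdh transcripts, 78.3% also occur in other genes, 213 of which are pseudogenes. The level of Gapdh, a glyceraldehyde phosphate dehydrogenase usually among the most abundant messages of a cell, was only 2.66 to 4.57 in Th17 cells. The shares were 72.2% for Eno1 (enolase), 68.0% for Pgk1 (phosphoglycerate kinase), 62.4% for Bnip3, 41.5% for Pgam1 (phosphoglycerate mutase), 36.6% for Higd1a and 36.3% for Pkm. In all, 15 genes had 10% or more, 9 of them enzymes, and levels of these are compared between libraries but not with other genes' levels without this limit.

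The first comparison asks how Th17 cells without STAT5 tetramers differ from WT cells. No gene of the 34 tested passed the test (limma, adjusted p under 0.05 over 11078 genes, where 0% of all genes were called), and Ak4 was too low to be tested. Most of them nevertheless lay above WT in the DKI libraries: 30 of 34 had a positive difference, with a median of 0.35, against 54.7% of all genes tested and a median of 0.03. At an unadjusted p under 0.05 there were 7 genes, all with a positive difference (20.6%, against 17.0% of all genes). The DKI libraries were both above both WT libraries for 12 genes (19.9% of all genes were) and both below for 1 gene (20.1% of all genes were).

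The glucose transporter genes were among the 12. Slc2a3, which encodes GLUT3, read 6.10 and 6.27 in WT and 6.98 and 6.79 in DKI cells. The difference was 0.70 (SE 0.33, adjusted p = 0.319 by limma). Slc2a1, which encodes GLUT1, read 4.57 and 4.70 in WT and 5.06 and 4.96 in DKI cells, a difference of 0.38 (SE 0.16). In both genes the groups did not overlap, yet neither difference passed the test. Slc16a1 read 4.35 and 4.70 in WT and 4.85 and 5.10 in DKI cells, and its difference of 0.45 (SE 0.12, adjusted p = 0.159 by limma) had the smallest p of the 34. Slc16a3, which encodes the lactate exporter MCT4, read 4.47 and 5.52 in WT and 5.21 and 5.72 in DKI cells, so that the WT libraries differed more from each other than the groups did.

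Of the 14 enzymes 13 had a positive difference, with a median of 0.41. The groups did not overlap for Pfkp, Gpi1, Aldoa and Gapdh. Pfkp, a phosphofructokinase gene, read 6.30 and 6.18 in WT and 6.85 and 6.42 in DKI cells (difference 0.39, SE 0.14, adjusted p = 0.219 by limma). For the other 3 the differences were 0.28 (Gpi1, glucose phosphate isomerase), 0.32 (Aldoa) and 0.44 (Gapdh). The remaining enzymes overlapped. WT replicate 1 was below WT replicate 2 for 13 of the 14 enzymes, with a median difference of -0.63, and DKI replicate 1 was below DKI replicate 2 for 11, with a median of -0.32. Tpi1, the triose phosphate isomerase gene, showed this most, at 7.19 and 8.20 in WT and 7.96 and 8.69 in DKI cells. Ldha read 8.23 and 9.12 in WT and 8.68 and 9.52 in DKI cells, a difference of 0.42 (SE 0.32). Without WT replicate 1, with both DKI libraries kept, the median difference of the enzymes was 0.11 and that of Ldha -0.02. Without WT replicate 2 they were 0.67 and 0.87. Each of these fits keeps a DKI library without a WT library of the same number. Hk1, a hexokinase gene, read 5.90 and 6.08 against 5.84 and 6.12 and was the 1 enzyme with no positive difference, while Hk2, the inducible hexokinase gene, read 4.64 and 4.97 against 5.33 and 4.95. Pkm, Pgk1, Pgam1, Eno1, Pfkl (the liver type phosphofructokinase) and Aldoc (aldolase C) had differences between 0.35 and 0.57.

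Of the regulators, Hif1a read 7.76 and 7.83 in WT and 8.15 and 8.01 in DKI cells, with groups that did not overlap (difference 0.29, SE 0.10, adjusted p = 0.209 by limma). Pfkfb3 did not separate the genotypes, at 4.06 and 3.96 against 4.05 and 3.95. Pfkfb4, which encodes a related enzyme, was the 1 gene with both DKI libraries below WT, at 2.65 and 2.48 against 2.41 and 2.22 (difference -0.25, SE 0.14).

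The 13 tested HIF targets had a median difference of 0.19, and 12 of them were positive. This median was not reliably below that of the enzymes: without DKI replicate 2 it was 0.30 against 0.26, and without WT replicate 1 both were 0.11. P4ha2, a collagen prolyl hydroxylase gene, had the largest difference of the 34: it read 1.11 and 1.10 in WT and 2.51 and 1.95 in DKI cells. The difference was 1.12 (SE 0.32, adjusted p = 0.166 by limma). Its relative P4ha1 read 5.05 and 5.01 against 5.12 and 5.11, a separation of 0.09. Egln3, a prolyl hydroxylase gene whose product marks HIF for degradation, read 3.01 and 3.31 in WT and 3.59 and 3.45 in DKI cells, a difference of 0.36 (SE 0.14). Ankrd37 read 2.75 and 3.26 against 3.48 and 3.49, a difference of 0.48 (SE 0.22). Groups did not overlap for these 4 genes.

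For Vegfa, Ddit4 and Ndrg1, replicates of at least 1 genotype lay farther apart than the genotype means. Vegfa, the gene of the vessel growth factor VEGF-A, read 2.82 and 1.53 in WT and 2.98 and 1.49 in DKI replicates 1 and 2. Ddit4 read 7.19 and 6.81 in WT and 7.95 and 6.42 in DKI cells, and Ndrg1 read 6.06 and 5.91 in WT and 7.36 and 5.79 in DKI cells. In each, replicate 1 was the higher in both genotypes. Pdk1, whose product keeps pyruvate out of mitochondria, ran the other way, at 5.86 and 6.22 in WT and 5.24 and 6.14 in DKI cells. Without DKI replicate 2 the difference was 1.38 for Ndrg1, 0.95 for Ddit4, -0.80 for Pdk1 and 0.61 for Pfkp. Without DKI replicate 1 the signs of Ndrg1 (-0.19), Ddit4 (-0.58) and Pdk1 (0.10) turned. The remaining HIF targets Bnip3, Bnip3l (its paralog), Egln1 (the main HIF prolyl hydroxylase), Mxi1 (a repressor of MYC) and Higd1a (a respiratory chain protein) overlapped, with differences from 0.05 to 0.26.

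**Figure D2:**
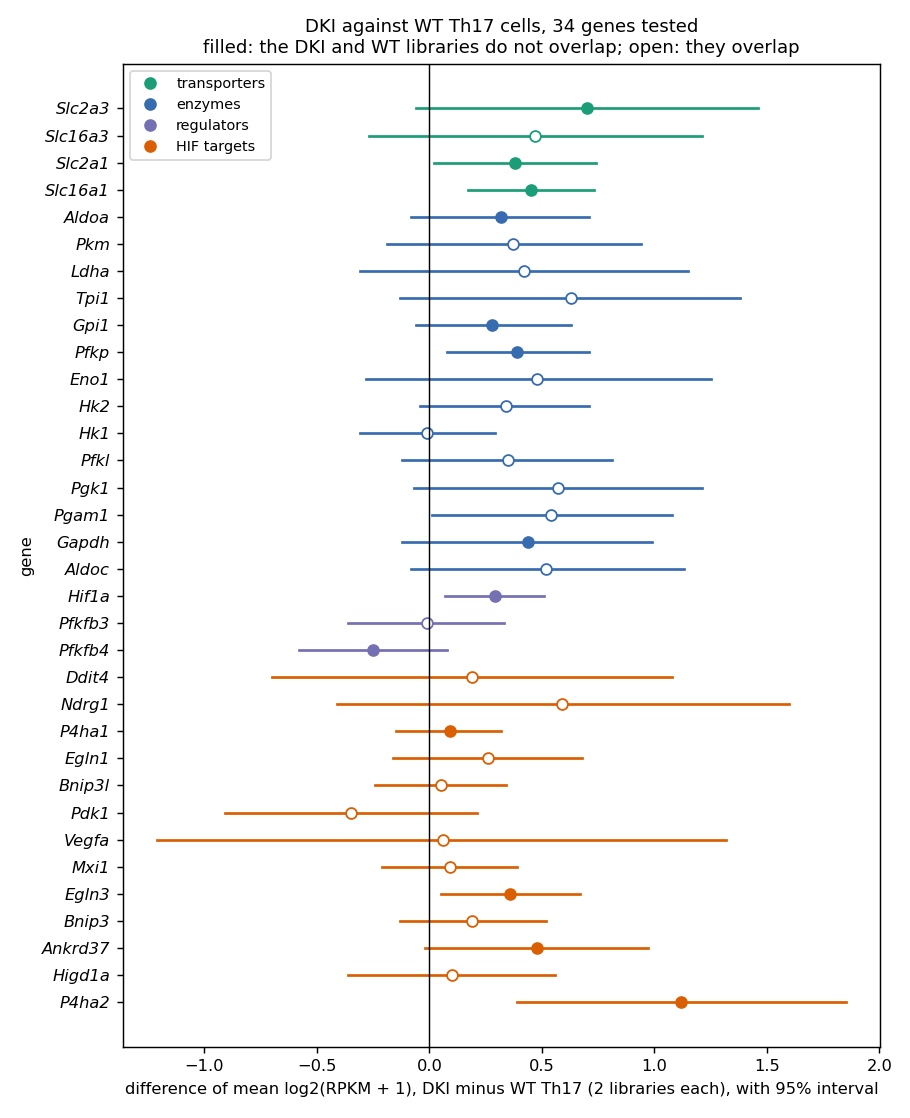
Difference of the mean log2(RPKM + 1) between DKI and WT Th17 cells (x axis, 2 libraries a group) for each of the 34 genes tested (y axis), with the 95% interval of the limma fit as a line; filled points mark genes whose DKI and WT libraries do not overlap. All but 4 points lie to the right of 0, P4ha2 farthest at 1.12, and most lines cross 0.

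Added CCL17 was compared with its absence in DKI Th17 cells, in 3 libraries each. None of 34 genes passed the test (limma, over 11297 genes, where 0% of all genes were called), none had an unadjusted p under 0.05 (3.64% of all genes did), and every adjusted p was 0.999. Differences ran from -0.15 (Pfkfb4 and Pgk1) to 0.24 (Gapdh), with a median of -0.06, against -0.01 over all genes. Of the 34 differences 30 were negative, among them 12 of 14 enzymes and 12 of 13 HIF targets, and 11.8% were positive against 45.8% of all genes. In this fit, which does not pair libraries by number, the 95% interval of the difference was -0.13 to 0.10 for Slc16a1, the narrowest, and -0.78 to 0.71 for Slc2a3, the widest. Hif1a, at 8.26, 8.28 and 8.28 without and 8.18, 8.34 and 8.28 with CCL17, had an interval of -0.16 to 0.15, and Ldha of -0.37 to 0.15. With the replicate number as a block the interval of Slc2a3 narrowed to -0.12 to 0.05 and that of Ldha to -0.21 to -0.01. In that fit 3 of the 34 genes had an unadjusted p under 0.05 (8.82%, against 13.5% of all genes), Ldha, Tpi1 and Aldoa, and none passed, the smallest adjusted p being 0.319 by limma. Where intervals of the unpaired fit were wide, replicate 1 stood apart in both arms. Slc2a3 read 6.92, 6.12 and 6.11 without and 6.91, 6.08 and 6.06 with CCL17. P4ha2 was likewise highest in replicate 1 of each arm, at 2.64, 2.15 and 2.30 without and 2.83, 1.85 and 2.04 with CCL17. Vegfa was lowest there, at 3.73, 4.53 and 4.55 without and 3.74, 4.36 and 4.37 with CCL17. The same replicate 1 libraries had the most neutrophil and granule marker RNA, 604 and 854 RPKM in sum against 272 to 305 in the other 4, and the least myeloid marker RNA, 652 and 686 against 824 to 1050. The part of these cells in the values was not tested.

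The DKI cultures without added CCL17 exist in both label sets, and their difference shows how far the genes vary between sets of like name. Against DKI cells of the WT and DKI set, 2 of the 34 genes tested rose in the CCL17 set (15.4% of 11507 genes did) and 4 fell (17.8% did), by limma with an adjusted p under 0.05. Both shares are below those of all genes. Quantile normalization shifted the split over all genes from 1777 higher and 2046 lower to 1448 and 2580, and that of these genes to 2 and 6. Vegfa rose the most: it read 2.98 and 1.49 in the first set and 3.73, 4.53 and 4.55 in the second, a difference of 2.04 (SE 0.51, adjusted p = 0.0161 by limma). Hk2 rose from 5.33 and 4.95 to 5.69, 5.85 and 5.77 (0.63, SE 0.15, adjusted p = 0.0131 by limma). Neither gene's groups overlapped. Without DKI replicate 2, the adjusted p was 0.104 for Vegfa (1.30) and 0.081 for Hk2 (0.44), and without replicate 2 or 3 of the CCL17 set that of Vegfa was 0.0514 or 0.0538.

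The genes that fell were Gapdh, Pdk1, Egln3 and Pfkfb4. Gapdh read 4.26 and 4.57 in the first set and 3.40, 3.05 and 2.66 in the second, a difference of -1.38 (SE 0.22, adjusted p = 0.00258 by limma). Of its 50-base stretches 78.3% also occur in other genes, and the part of lost or split reads in this difference was not tested. Pdk1 read 5.24 and 6.14 against 4.23, 4.34 and 4.32, a difference of -1.39 (SE 0.23, adjusted p = 0.0026 by limma). It was -0.94 without DKI replicate 2. Egln3 read 3.59 and 3.45 against 3.07, 2.92 and 2.82 (-0.59, SE 0.12, adjusted p = 0.00807 by limma). The groups did not overlap in any of these. Pfkfb4, at 2.41 and 2.22 against 1.78, 2.05 and 1.87, passed narrowly (-0.42, SE 0.14, adjusted p = 0.0427 by limma), and its adjusted p was 0.101 without replicate 1 and 0.11 without replicate 3 of the CCL17 set, and 0.174 and 0.0561 without DKI replicates 1 and 2. With the replicate number as a block shared by both sets, its adjusted p was 0.0999 by limma, although no label links the numbers of the sets. The other 28 genes did not pass. Slc16a1 had a difference of 0.31 (adjusted p = 0.0665 by limma) and Ankrd37 one of -0.57 (adjusted p = 0.0574 by limma). Ldha read 8.68 and 9.52 in the first set and 9.09, 8.85 and 8.81 in the second, so that the second lay between the first set's libraries.

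**Figure D3:**
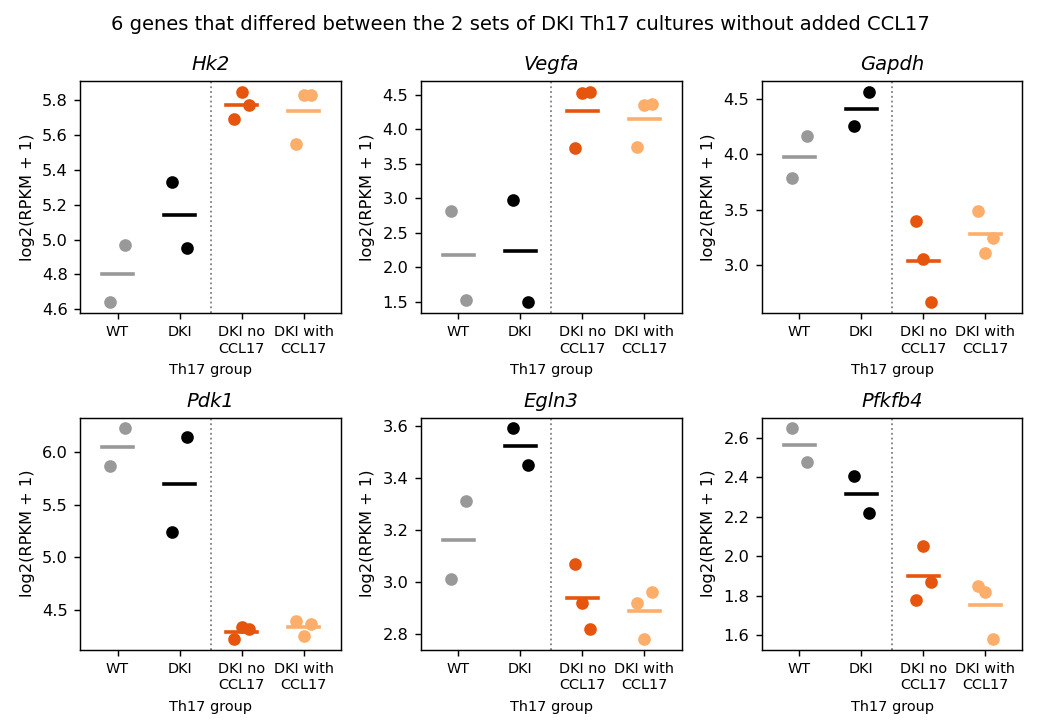
Level in log2(RPKM + 1) (y axes, each with its own range) of the 6 genes that differed between the DKI libraries and the DKI libraries without CCL17, in the 4 Th17 groups (x axis); points are libraries, bars are group means and the dotted line separates the label sets. Hk2 and Vegfa lie higher right of the line and Gapdh, Pdk1, Egln3 and Pfkfb4 lower.

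All 10 myeloid markers were present at an RPKM of at least 1 in every library of the CCL17 set, none at 0, and they moved with this difference. In percent of the spinal cord monocyte library, their sum was 4.21% to 6.77% in the 6 libraries of the CCL17 set and 0.136% to 0.597% in the 4 of the WT and DKI set. Vegfa was at 4.29% to 7.81% and at 0.628% to 2.39% on the same scale, and Hk2 at 32.6% to 40.4% and at 17.0% to 27.9%. Other genes read on this scale did not separate the sets in this way. Slc2a1 was at 12.1% to 16.3% and at 9.92% to 14.2%, and Bnip3 at 9.7% to 12.1% and at 9.64% to 13.5%. These ranges overlapped, as did those of Pfkfb3. Egln3 tended lower in the CCL17 set, at 10.1% to 12.7% against 12.2% to 19.1%. Markers of other cells moved as well: the 8 B cell markers summed to 8.83 to 18.4 RPKM in the WT and DKI set and to 67.0 to 103 in the CCL17 set, the neutrophil and granule markers to 3.59 to 17.5 and 272 to 854, and the T cell markers to 2830 to 2900 and 2050 to 2320. The part of these cells in the differences was not tested. The set cannot be told apart from any other difference in culture or handling.

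Bone marrow and spinal cord monocytes of DKI mice differ in whether the cells were taken from their site of origin or from the inflamed tissue. There is 1 library of each, so no test was made, and the intervals given cover counting error only. Of 32 genes that reached an RPKM of 5 in the bone marrow or the spinal cord, 12 were at least 4-fold higher in the spinal cord on the log2(RPKM + 1) scale (6.23% of 8182 genes were) and none was 4-fold lower (5.13% were). At 2-fold the counts were 21 higher (11.5% of all genes) and 0 lower (19.0%). The median difference was 1.48, against -0.37 over all genes. Median centring of the libraries moved the latter to -0.07, and 15 genes were then 4-fold higher (7.36% of all genes were).

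Of the transporter genes, 3 were higher in the spinal cord library by at least 2-fold. Slc2a1 read 4.09 in bone marrow and 7.84 in the spinal cord, a ratio of RPKM of 14.2 (95% interval 13.6 to 15.0, exact binomial on recovered reads). Slc16a3 read 5.21 and 7.09, and Slc16a1 read 2.99 and 4.27. Slc2a3 was low in both, at 1.98 and 1.50. All 14 enzymes were higher in the spinal cord, from 0.19 for Hk1 to 2.91 for Aldoc. Tpi1 (6.85 and 9.14), Pfkl (4.49 and 6.63) and Aldoc (1.43 and 4.34) exceeded 4-fold. Hk2 (5.22 and 7.14) and Ldha (6.88 and 8.55) followed, with RPKM ratios of 3.86 (3.75 to 3.97) and 3.20 (3.12 to 3.29). Gpi1 and Eno1 (both 0.37), Pkm (0.68) and Pgam1 (0.72) differed less, and Pfkp, Pgk1, Gapdh and Aldoa by 1.05 to 1.29. Of the regulators, Hif1a read 5.79 and 7.85 and Pfkfb3 read 3.32 and 6.48, whereas Pfkfb4 was lower in the spinal cord, at 4.58 and 3.79.

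The HIF targets split. Vegfa had the largest difference of the 35, from 1.03 in bone marrow to 8.17 in the spinal cord, or 118 and 27071 recovered reads, a ratio of RPKM of 274 (229 to 332). Egln3 read 1.31 and 5.88, a ratio of 39.2 (32.7 to 47.0), and Ddit4 read 2.71 and 6.15. Bnip3 (2.90 and 5.73), Ankrd37 (1.85 and 4.45) and P4ha1 (3.77 and 6.04) also exceeded 4-fold. P4ha2 and Ak4 were below the level at which genes were counted: P4ha2 had no recovered read in bone marrow and an RPKM of 2.13 in the spinal cord, at least 53.0-fold higher against a floor of 3 reads in the bone marrow library. Ak4 had 3 recovered reads in bone marrow and 526 in the spinal cord, a ratio of 187 with a counting interval of 71.5 to 1020. By contrast Bnip3l (5.68 and 4.91) and Ndrg1 (6.49 and 6.00) were lower in the spinal cord, and Egln1 (4.39 and 5.10), Mxi1 (3.72 and 4.13) and Higd1a (2.46 and 3.10) differed by less than 2-fold. Pdk1 read 2.45 and 4.38.

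**Figure D4:**
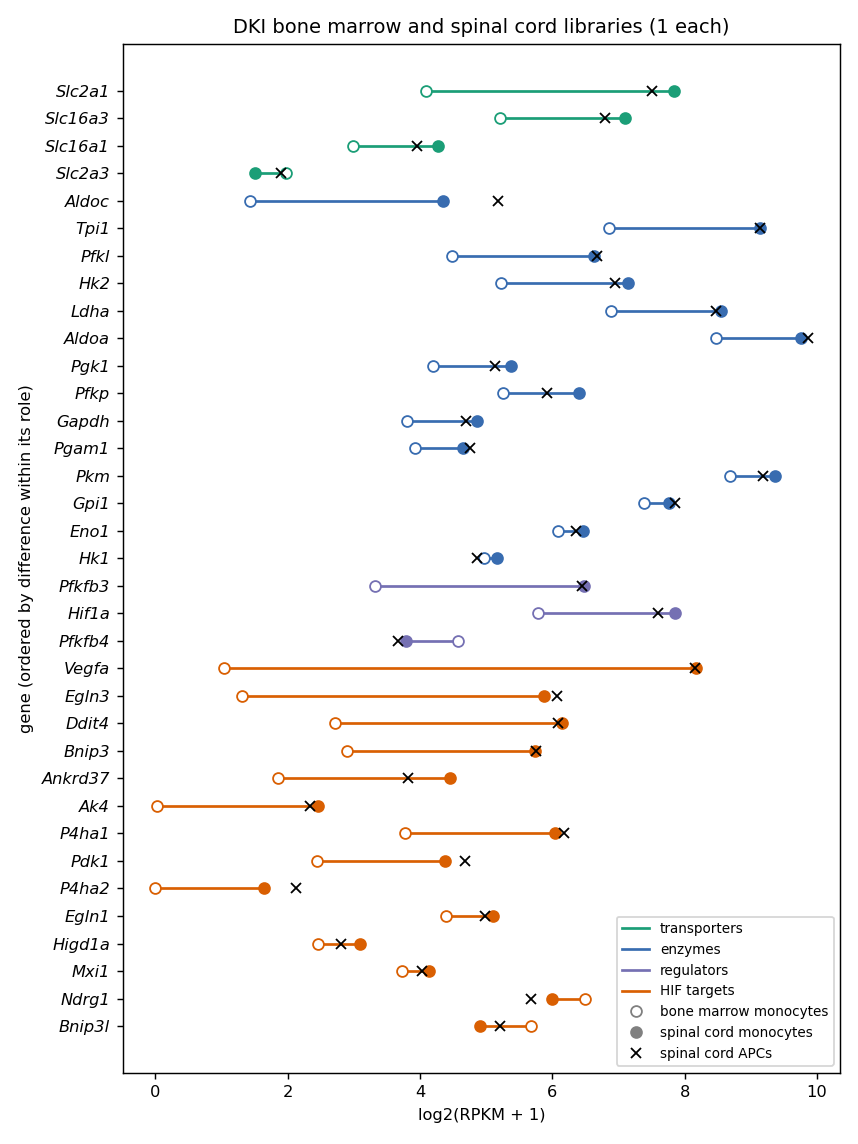
Level in log2(RPKM + 1) (x axis) of the 35 genes (y axis, by role) in the bone marrow monocyte, spinal cord monocyte and spinal cord APC libraries of DKI mice, with a line joining the 2 monocyte libraries. The lines for Vegfa, Egln3, Slc2a1 and Ddit4 are the longest, and the crosses for APCs lie close to the filled points for spinal cord monocytes.

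Markers of other cells differed between these libraries too. The 10 microglia markers summed to 191 RPKM in bone marrow monocytes, with 1 at 0, and to 522 in spinal cord monocytes, with none at 0. The 10 neutrophil and granule markers summed to 7110 and 758, and the 10 T cell markers to 0.53, with 4 at 0, and 26.4. The 10 markers of antigen-presenting cells summed to 150 in bone marrow monocytes and 12200 in spinal cord monocytes. The part of all these markers' cells in the differences was not tested.

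Spinal cord APCs and spinal cord monocytes had nearly the same levels. None of 32 genes differed by 4-fold in either direction (0.240% of 7499 genes were higher and 0.0800% lower) or by 2-fold (1.55% and 0.947%). The median difference was -0.10. Aldoc was the farthest above, at 5.18 in APCs and 4.34 in monocytes, a ratio of RPKM of 1.84 (1.72 to 1.96). Ankrd37 was the farthest below, at 3.82 and 4.45, a ratio of 0.631 (0.545 to 0.728). Vegfa (8.15 and 8.17) and Tpi1 (9.13 and 9.14) differed by no more than counting error, and so did Bnip3 (5.75 and 5.73) and Pfkfb3 (6.45 and 6.48). The 3 counted transporters were lower in APCs, with differences from -0.35 to -0.30. Microglia markers summed to 1340 RPKM in the APC library, and the markers of antigen-presenting cells to 23400 against 12200 in monocytes.

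Spinal cord monocytes were set beside the 5 DKI Th17 libraries without added CCL17, as levels of different cell types and without a test. Of 33 genes counted, 5 were 4-fold higher in the monocytes (7.74% of 9479 genes were) and 1 was 4-fold lower (14.3% were). At 2-fold there were 13 higher (13.3%) and 3 lower (40.3%). The 5 were Vegfa (8.17 against a mean of 3.46), Bnip3 (5.73 against 2.83), Slc2a1 (7.84 against 5.02), Egln3 (5.88 against 3.17) and Pfkfb3 (6.48 against 4.03), and the 1 lower was Slc2a3 (1.50 against 6.58). The median over the 33 genes was 0.43, against -0.75 over all genes. Centring each library on its median gene moved the latter to -0.03. With centring, 9 genes were 4-fold higher (11.5% of all genes were) and 1 was 4-fold lower (7.87% were). No enzyme reached 4-fold, the largest difference being 1.63 for Hk2. Ldha (8.55 against 8.99) and Hif1a (7.85 against 8.20) were lower in the monocyte library. Ddit4 (6.15 against 7.59) and Ndrg1 (6.00 against 7.02) were the 2 HIF targets more than 2-fold lower.

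RPKM is corrected for length, so the share of each gene in a pair of related genes was computed, and in 7 of 9 pairs the leading gene was not the same in all libraries. Shared stretches limit the level of these shares for the pairs with Bnip3, Pfkp (16.3% shared) and Aldoa (11.2%). Slc2a1 made up 20.5% to 30.3% of the summed RPKM of Slc2a1 and Slc2a3 in the 10 Th17 libraries, 84.6% in BM monocytes and 99.2% in SC monocytes. Thus GLUT3 RNA led in the T cells and GLUT1 RNA in the myeloid cells. Hk1 made up 46.7% to 71.1% of the hexokinase pair Hk1 and Hk2 in Th17 cells, 45.4% in BM monocytes and 19.8% in SC monocytes. Slc16a1 made up 35.7% to 60.8% of its pair with Slc16a3 in Th17 cells, with the lower values meaning that the exporter gene Slc16a3 led, and 11.6% to 16.2% in the myeloid libraries.
In the regulators and HIF targets the shift lay between bone marrow and spinal cord. Pfkfb3 made up 28.2% of its pair with Pfkfb4 in BM monocytes and 87.3% in SC monocytes, close to the 74.8% to 89.8% of Th17 cells. Egln1 made up 93.1% of its pair with Egln3 in BM monocytes, 36.4% in SC monocytes and 76.5% to 83.4% in Th17 cells. Bnip3 made up 11.4% of its pair with Bnip3l in BM monocytes, 64.0% in SC monocytes and 16.4% to 20.1% in Th17 cells, although 62.4% of its 50-base stretches occur elsewhere in the genome's transcripts. Pfkl made up 36.5% of its pair with Pfkp in BM monocytes, 54.0% in SC monocytes and 24.4% to 41.3% in Th17 cells. Aldoa and P4ha1 led their pairs in every library, with at least 96.3% and 83.9%. The APC library was within 9 percentage points of SC monocytes in all 9 pairs.

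**Figure D5:**
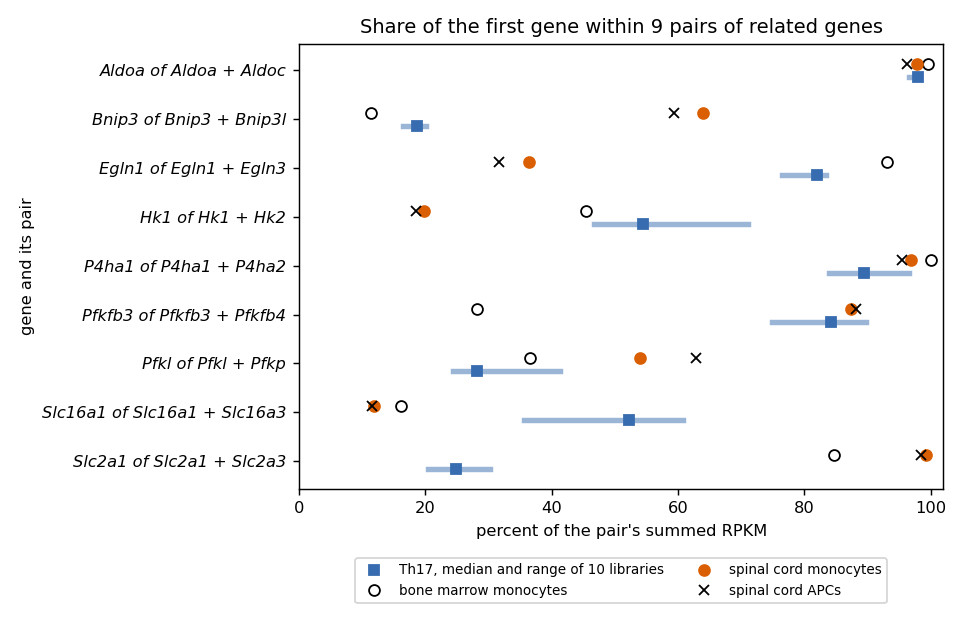
Share of the first gene in the summed RPKM of 9 pairs of related genes (x axis, percent), with the median and range of the 10 Th17 libraries as a square and bar and each myeloid library as a point. The squares and points are farthest apart for Slc2a1, where the Th17 median is 24.9% and the spinal cord monocytes read 99.2%.

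Enzymes were compared with HIF targets by the mean log2(RPKM + 1) of the 14 enzymes minus that of the 14 HIF targets in each library. In Th17 cells the enzymes lay 2.12 to 2.76 above the HIF targets. The values were 2.13 and 2.57 in WT, 2.25 and 2.76 in DKI, 2.42, 2.20 and 2.12 without CCL17 and 2.38, 2.21 and 2.19 with CCL17, so the groups overlapped. BM monocytes had the widest gap of the 13 libraries, 2.78, hardly above the 2.76 of DKI replicate 2. With medians in place of means their order turned, at 2.66 and 2.70. SC monocytes and APCs had the narrowest gaps, 1.96 and 1.94. With only the genes under 10% of shared 50-base stretches, a selection made after seeing the data, the gap was 1.32 as the mean of the Th17 libraries, 2.17 in BM monocytes and 1.29 in SC monocytes. The means show how: from bone marrow to spinal cord monocytes the enzymes went from 5.55 to 6.83 and the HIF targets from 2.77 to 4.87. Both lists were higher in the spinal cord, the HIF targets by more. The mean of the transporters went from 3.57 to 5.18 and that of the regulators from 4.56 to 6.04.

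The same comparisons were read for a list of 46 symbols of other genes of glycolysis and hypoxia. The list held Ero1a under both its old and its current symbol. Between WT and DKI Th17 cells none of the 34 tested passed the test by limma (8, or 23.5%, had an unadjusted p under 0.05, against 17.0% of all genes), with 21 positive differences and a median of 0.07. The 3 largest were Ldhb, the other lactate dehydrogenase gene (-0.80, SE 0.23), Fam162a (0.60, SE 0.22) and Ero1a, a gene of disulfide formation (0.57, SE 0.21). With CCL17 none of 34 passed by limma (2 had an unadjusted p under 0.05), the largest being again Ldhb, at 0.40 (SE 0.16). Between the DKI sets 3 of 35 rose and 8 fell, where 15.4% and 17.8% of all genes did. Hk3, a hexokinase gene of myeloid cells, rose by 4.08 (SE 0.46, adjusted p = 0.000579 by limma), while Kdm3a, a histone demethylase gene (-0.83), Eno3 (-0.80), Ldhb (-0.77) and Pdk2 (-0.69) fell. Between bone marrow and spinal cord monocytes 2 of the 22 counted were 4-fold higher (6.23% of all genes were), Bhlhe40, a transcription factor gene, at 2.55 and 8.24, and Mif, a cytokine gene, at 3.93 and 7.56. None was 4-fold lower and the median was 0.18. Between spinal cord APCs and monocytes 0 of 19 differed by 4-fold (0.240% of all genes were higher and 0.0800% lower). Of 26 counted, 1 (Hk3) was 4-fold higher in spinal cord monocytes than in DKI Th17 cells (7.74% of all genes were). Lower by 4-fold were 3, Rora, Epas1 and Plod2 (14.3% of all genes were). The median there was -0.18, against -0.75 over all genes.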

How the data were processed

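The deposited table holds 1 value per gene and library on a log2 scale. Its unit was taken as log2(RPKM + 1), since undoing a base of 2 and weighting by gene length gives sums of 1030000 to 1071000 per library, and 0.0001 stands for no reads. Per the submitters' processing notes, the authors used Subread, featureCounts and mouse build mm10; versions and settings are not given in the sources used here. A column headed MDC was matched to the spinal cord APCs, the 1 sample described as monocyte-derived. The steps between single reads in low values gave each library's read total (73.8% to 76.5% of low values lay within 0.1 reads of a whole number, 20% if even).

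Differences among Th17 groups were tested by limma (version 3.58.1, under R 4.3.3; eBayes with a mean-variance trend, Benjamini-Hochberg over all genes with an RPKM of at least 1 in at least 2 libraries compared, 3 for CCL17). Both comparisons that involve the WT and DKI set came from 1 fit of all 10 Th17 libraries, so the spread is pooled. CCL17 used its own 6 libraries. There, residuals of libraries with equal numbers correlated at 0.76, 0.50 and 0.51, which meets the rule for pairs, although replicates 2 and 3 also correlated across numbers (0.50 and 0.48). The printed values are from the fit without a block unless the block is named. Myeloid libraries were described without a test. All 35 genes are named, with up to 6 other pathway genes a comparison, ranked by size of difference. The procedure was tested on simulated data. The members and lists were chosen with earlier results of these data known. Alternatives are given in the closing section; those on shared 50-base stretches and on the block within each set were added after seeing the data.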

Additional observations from a re-analysis of the deposited data

How the results depend on the processing

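Between WT and DKI Th17 cells, 0 of 34 genes were called under each planned setting except without a replicate, where the count ran from 0 to 4 (4 without DKI replicate 2). With the replicate block, in which equal numbers share a term across both label sets, it was 0. Such a block cannot take up a replicate effect that differs between the sets. With the replicate block within each label set, an alternative added after seeing the data, 11 were called, all higher (Eno1, Ldha, P4ha2, Pfkl, Pgam1, Pkm, Slc16a1, Slc2a1, Slc2a3, Tpi1 and Pfkp), among 811 genes higher and 470 lower. No label says that equal numbers mark paired WT and DKI cultures, although same-numbered residuals correlated at 0.42, and with 2 pairs this was not taken as pairing. Of all genes, quantile normalization called 1 higher and 6 lower, the fit without DKI replicate 2 called 285 and 295, that without WT replicate 2 called 62 and 61, and that without DKI replicate 1 called 1 and 3. Leaving out 1 replicate at a time, the enzymes' median difference ran from 0.11 (without WT replicate 1) to 0.67 (without WT replicate 2), that of the HIF targets from 0.11 to 0.34, that of all 34 genes from 0.11 to 0.51, Ldha from -0.02 to 0.87, Pdk1 from -0.80 to 0.10, Ndrg1 from -0.19 to 1.38 and Ddit4 from -0.58 to 0.95. With CCL17, 0 of these genes were called under every setting run, and the replicate block called 2 of all genes, where 0 were called without it. Between the DKI sets the count of called genes stayed within 4 to 8, and the replicate block gave 5, without Pfkfb4. Gapdh, Pdk1 and Egln3 were called under every setting run. Of all genes, 1777 were called higher and 2046 lower, against 1199 and 1224 with only the libraries compared and 1109 and 1404 without replicate 3 of the CCL17 set. Leaving out 1 replicate at a time, the enzymes' median ran from -0.38 to -0.04, Ndrg1 from -0.04 to 1.53, Ddit4 from -0.09 to 1.44 and Mxi1 from -0.35 to 0.06. The cause of these shifts was not tested.

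Among the myeloid libraries, a 2-fold limit gave 21 genes for spinal cord against bone marrow monocytes, where 12 passed 4-fold. For spinal cord monocytes against DKI Th17 cells 6 passed 4-fold, 10 did so after median centring, and 16 passed 2-fold. After centring, 11.5% of all genes were 4-fold higher and 7.87% were 4-fold lower. The gap between enzymes and HIF targets depended on which genes entered. With only genes at an RPKM of at least 1 in every library it was 1.88 in Th17 cells, 2.32 in BM monocytes, 1.49 in SC monocytes and 1.50 in APCs. With only genes under 10% of shared 50-base stretches (5 enzymes and 8 HIF targets, added after seeing the data) it was 1.32, 2.17, 1.29 and 1.27, and the Th17 and SC values no longer stood apart. With medians it was 1.54 and 1.42 in SC monocytes and APCs, and with a pseudocount of 0.1 it was 3.38 in BM monocytes. BM monocytes had the widest gap of these 4 sets under each, although with medians the single library DKI replicate 2 (2.70) exceeded them (2.66). With 2 libraries a group the fit can miss differences of the size seen here, and with 1 library a group no spread is known.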
